A study of Saccharomyces cerevisiae with 15 samples.

Results

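The 7 genes described here encode the enzymes that turn acetaldehyde into acetate and acetate into acetyl-CoA in baker's yeast. Their products are the aldehyde dehydrogenases Ald2, Ald3, Ald4, Ald5 and Ald6 and the acetyl-CoA synthetases Acs1 and Acs2. They were chosen by gene symbol from the 5449 Saccharomyces cerevisiae genes that could be named on the array, and each of the 7 has 1 probe set. RNA was measured on 15 Affymetrix Yeast 2.0 arrays, 3 for each of 5 haploid S288C (MATα) strains grown as separate biological triplicates. The study asked which genes follow the catalytic activity of Gcn5, the acetyltransferase of the SAGA complex, by adding graded amounts of a dominant, catalytically inactive mutant. Wild-type cells carried a control plasmid. The next 3 strains kept the native GCN5 and carried gcn5-F221A on a centromeric plasmid behind mutant TEF promoters, whose strength relative to the unmutated promoter was 0.32 in the weakest, 0.68 in the middle and 0.95 in the strongest. In the gcn5 null strain a hygromycin-B resistance gene replaced GCN5, and this strain also carried the control plasmid. All strains therefore held a plasmid with G418 resistance, and all were grown in minimal medium with 20 g/L glucose and 200 µg/mL G418 and were harvested at an optical density of 0.4 to 0.5. Since the mutant strains are mixtures of native and mutant Gcn5 while the null strain lacks the protein, they are different models of lost activity.

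Yeast growing on glucose makes the acetyl-CoA of its cytosol and nucleus mainly through the pyruvate dehydrogenase bypass. Pyruvate is decarboxylated to acetaldehyde, an aldehyde dehydrogenase oxidizes this to acetate, and an acetyl-CoA synthetase joins the acetate to coenzyme A at the cost of ATP. The acetyl-CoA made in this way supplies lipid synthesis and the histone acetyltransferases of the nucleus, Gcn5 among them. Ald6 is the main cytosolic enzyme on glucose and makes NADPH, Ald4 and Ald5 work in mitochondria, and Ald2 and Ald3 are cytosolic, are known as stress-induced genes and take part in the synthesis of β-alanine, a precursor of coenzyme A. Acs2 is the synthetase needed on glucose, and Acs1 is known as the glucose-repressed form.

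The GCN5 signal served as a check of the strains. This gene, whose probe set reads the native and the mutant copy together, had strain means between 5.78 in the null strain and 13.13 at strength 0.95, with 8.92 in wild-type. Median log2 signals of the arrays lay between 5.997 and 6.068. The 4 genes specific to α cells had strain means from 9.64 to 14.49 in wild-type and from 7.43 to 13.70 in the null strain, and 6 genes specific to a cells had 5.94 to 8.40 and 6.49 to 8.13. All of these are above the background of the array, and since signals of different probe sets cannot be set against each other, the labelled mating type is not settled by them. All 7 genes were above 5.18, the 95th percentile of the Schizosaccharomyces pombe probe sets that serve as background, on every array, and their lowest single value was 7.93. Replicates were less alike at 0.32 and 0.68 than elsewhere, with median SDs over all genes of 0.150 and 0.181 against 0.106 in wild-type, 0.117 at 0.95 and 0.078 in the null strain.

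**Figure D1:**
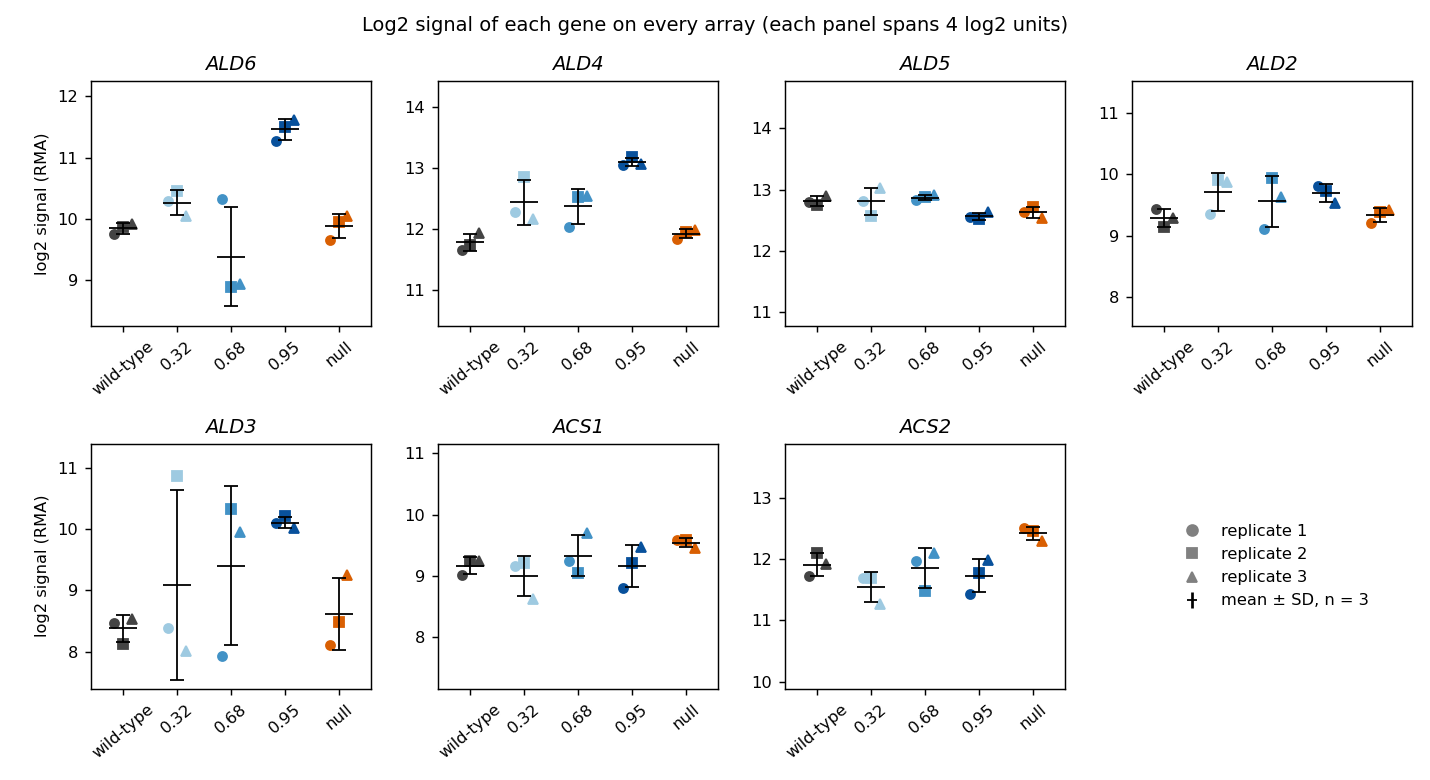
Log2 signal (RMA) of the 7 genes on every array, by strain (wild-type, the weak, middle and strong gcn5-F221A strains, gcn5 null). Points are arrays, marked by replicate number, and bars are the mean ± SD of 3 arrays. At 0.95 the ALD6 arrays lie between 11.28 and 11.61 and the ALD4 arrays between 13.05 and 13.18, above all other arrays of those genes, while ALD3 is split within the strains at 0.32 and 0.68.

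The aldehyde dehydrogenase genes ALD6 and ALD4 rose at the strongest promoter, and the only gene of the set called higher in the null strain was ACS2, a call that several alternatives ended, among them a covariate for RNA quality (a log2 difference of 0.15 in place of 0.51, limma adjusted p = 0.202). Wild-type and null arrays did not overlap in that covariate, so it cannot separate RNA quality from strain. At strength 0.95, 2 of 7 genes were higher than in wild-type and 0 were lower, where 12.5% of all genes were called (7.25% higher and 5.23% lower). At 0.68 the count was 1 higher and 0 lower, against 12.4% of all genes. At 0.32 none of the 7 passed limma's test at an adjusted p under 0.05, where 1.6% of all genes did, and 2 had an unadjusted p under that value. In the null strain 1 rose and 0 fell, a smaller share than the 41% of all genes called there (18.4% higher and 22.6% lower). For the slope over strength it was 2 higher and 0 lower, against 15.7% of all genes. The 3 arrays of a strain lay wholly above those of wild-type for 4 genes and wholly below for 1 at 0.95 (38.8% of all genes did one or the other), for 1 and 0 at 0.68 (28%), for 2 and 1 at 0.32 (17%) and for 2 and 1 in the null strain (62.9%). The median difference of the 7 genes from wild-type on the log2 scale was 0.14 for the null strain, and 0.42, 0.16 and 0.40 for the mutant strains in rising order of strength, with medians of all genes between -0.01 and 0.00. These are counts over a small set chosen by function, and a difference within a culture's RNA cannot tell more RNA per cell from more cells with that RNA.

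ALD6 (YPL061W, chromosome XVI from 432588 to 434090, assembly R64) encodes the cytosolic enzyme that supplies acetate and NADPH. Its log2 signals were 9.75, 9.87 and 9.92 in wild-type and 11.28, 11.51 and 11.61 at strength 0.95. At 0.32 they were 10.30, 10.46 and 10.05. At 0.68 they were 10.32, 8.89 and 8.94. The strain at 0.95 was above every other array, the strain at 0.32 lay just above wild-type with no overlap, and the strain at 0.68 was divided, with replicate 1 above and replicates 2 and 3 below all wild-type arrays. The null strain, at 9.66, 9.95 and 10.05, overlapped wild-type.

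The rise of ALD6 at 0.95 was 3.07-fold, a log2 difference with a 95% interval from 0.99 to 2.24, which placed it at rank 11 among 5449 genes. The difference at 0.32 was 0.42 (standard error 0.29, limma adjusted p = 0.655). At 0.68 it was -0.46 (standard error 0.29, adjusted p = 0.309). Without replicate 1 of that strain it was -0.93 (adjusted p = 6.19e-04), where 26.6% of all genes were called, against 12.4% with that array. ALD6 therefore had its lowest mean at 0.68 and its highest at 0.95, a step of 2.08 (standard error 0.29, adjusted p = 0.00265) in a pair of strains where 4.99% of all genes were called. The linear slope from wild-type, at strength 0, through the mutant strains was still called, at 1.14 log2 units per unit of strength (standard error 0.28, adjusted p = 0.0184), although the means did not rise step by step. That call was lost without wild-type replicate 1 or 2 or 0.95 replicate 2 or 3 (adjusted p from 0.0518 to 0.0623), while the difference at 0.95 was called with each of the 15 arrays left out in turn.

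In order of its mean, ALD6 was lowest at 0.68, followed by wild-type, the null strain and 0.32, and the arrays of each neighbour in that order overlapped except at the last step. From 0.32 to 0.95 the arrays were apart by a mean of 1.197, which did not pass limma's test (standard error 0.29, adjusted p = 0.0545; 1.91% of all genes were called in this pair).

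ALD4 (YOR374W, chromosome XV from 1039840 to 1041399) encodes the mitochondrial enzyme, which is induced when glucose is lacking. Wild-type arrays gave log2 signals of 11.66, 11.75 and 11.94. The mutant strains gave 12.28, 12.86 and 12.17 at 0.32, 12.04, 12.53 and 12.55 at 0.68, and 13.05, 13.18 and 13.06 at 0.95. All 9 arrays with gcn5-F221A were above all wild-type arrays, and the 3 arrays at 0.95 were above all others. The null strain, at 11.84, 11.96 and 11.99, overlapped wild-type.

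ALD4 rose 2.49-fold at 0.95, with an adjusted p between 1.41e-04 and 0.00369 over all 15 arrays left out in turn. At 0.68 it rose 1.51-fold (log2 difference 0.59, standard error 0.17, limma adjusted p = 0.0405). At 0.32 the difference was as large, 0.65 (standard error 0.17), but the adjusted p was 0.0887. The means at 0.68 and 0.32 differed by 0.06 (adjusted p = 0.817, 3.36% of all genes called). The slope was 1.19 per unit of strength (standard error 0.17, adjusted p = 8.76e-04). The call at 0.68 was lost without any single wild-type, 0.95 or null array and without 0.68 replicate 2 or 3 (adjusted p from 0.0505 to 0.182). Without 0.68 replicate 1 the difference at 0.32 passed (0.65, adjusted p = 0.036), where 2.72% of all genes were called, against 1.6% with that array. In order of their means the strains stood as wild-type, null, 0.68, 0.32 and 0.95, and only the steps from null to 0.68 (0.45, adjusted p = 0.0932, 16.2% of all genes called) and from 0.32 to 0.95 (0.66, adjusted p = 0.0682) had arrays that did not overlap. Between strains that were not neighbours, 0.95 minus 0.68 passed at 0.73 (adjusted p = 0.0294, 4.99% of all genes called). The null strain minus 0.32 passed at -0.51 (adjusted p = 0.0293, 2243 of 5449 genes called).

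ALD5 (YER073W, chromosome V from 304030 to 305592) encodes the other mitochondrial enzyme and moved least of the 7. Its log2 signals spanned 0.51 over all 15 arrays, from 12.52 to 13.03. Wild-type had 12.79, 12.74 and 12.90, the strain at 0.95 had 12.56, 12.52 and 12.63, and the null strain had 12.64, 12.72 and 12.53. Both mutant extremes thus lay below wild-type with no overlap, by 0.24 at 0.95 (standard error 0.10, limma adjusted p = 0.139) and by 0.18 in the null (standard error 0.10, adjusted p = 0.173), and neither passed the test. At 0.32 and 0.68 the differences were -0.00 and 0.06 with 95% intervals within 0.28 log2 units of 0. The opposite placing of ALD4 and ALD5, which serve the same compartment, was seen at 0.95, where every ALD4 array was above wild-type and every ALD5 array below.

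**Figure D2:**
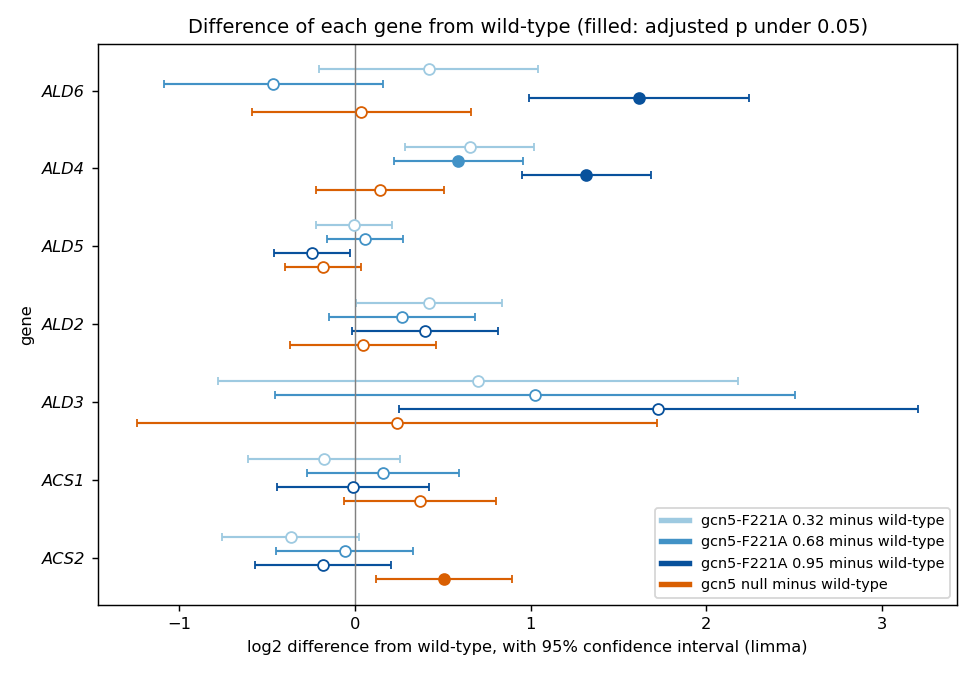
Log2 difference of each gene from wild-type with its 95% confidence interval, by strain, from one limma fit to 15 arrays. Filled points passed an adjusted p of 0.05. ALD6 and ALD4 pass at 0.95, ALD4 at 0.68 and ACS2 in the null strain, and the intervals of ALD3 are the widest of the 7, from -0.45 to 2.50 at 0.68.

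ALD2 (YMR170C, chromosome XIII from 601562 to 603082) and ALD3 (YMR169C, chromosome XIII from 599352 to 600872) are tandem copies on 1 strand, 689 bases apart, and closely related in sequence. Each has its own probe set, but how far RNA of one binds probes of the other could not be checked here, so values for either gene are uncertain to that extent. ALD2 had log2 signals of 9.43, 9.14 and 9.29 in wild-type and 9.82, 9.73 and 9.53 at 0.95. These did not overlap, and the difference of 0.40 (standard error 0.19, limma adjusted p = 0.202) did not pass. At 0.32 the arrays gave 9.35, 9.90 and 9.88, at 0.68 9.11, 9.94 and 9.62, and in the null strain 9.21, 9.38 and 9.42. All 5 strains overlapped their neighbours when ordered by mean.

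ALD3 had the largest spread between replicates of the 7 genes. Its log2 signals were 8.47, 8.13 and 8.54 in wild-type, 10.09, 10.21 and 10.02 at 0.95, and 8.11, 8.48 and 9.26 in the null strain. At 0.32 they were 8.38, 10.86 and 8.005, and at 0.68 they were 7.93, 10.34 and 9.96. Replicate 2 at 0.32 and replicates 2 and 3 at 0.68 therefore stood at the level of the 0.95 strain, and the remaining arrays of those strains stood at the level of wild-type. The pooled SD within strains was 0.95, larger than that of 99.98% of genes.

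At 0.95 the ALD3 arrays lay above all wild-type arrays, and the fitted difference was 1.73 (3.31-fold, standard error 0.68, 95% interval 0.25 to 3.21). This was rank 9 of 5449 genes, ahead of ALD6, but it did not pass in the fit with one spread over all strains (limma adjusted p = 0.123). With the wild-type and 0.95 arrays alone in the fit, the adjusted p was 8.49e-04, and without 0.32 replicate 2 it was 0.0401. At 0.32 the difference was 0.70 (standard error 0.68, adjusted p = 0.763), and it turned to -0.19 without replicate 2. At 0.68 it was 1.03 (standard error 0.68, adjusted p = 0.343). The slope of 1.70 per unit of strength (standard error 0.67, adjusted p = 0.106) passed without 0.32 replicate 2 (adjusted p = 0.0182) or 0.68 replicate 1 (adjusted p = 0.0256).

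The divided arrays were not divided in the same way for every gene. At 0.68, replicate 1 was the lowest of the 3 for ALD3, ALD2 and ALD4 and the highest for ALD6. At 0.32, replicate 2 was the highest for ALD3, ALD2, ALD4 and ALD6 and the lowest for ALD5. Both tandem copies were high on that array, whereas replicate 3 had ALD2 at 9.88 and ALD3 at 8.005.

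The genes whose profiles over the 15 arrays lay nearest to that of ALD3 were MSC1, FMP16 and CTT1, by the root mean square difference of profiles centred on each gene's own mean. The differences were 0.30, 0.35 and 0.36 log2 units, and the median over all genes was 1.01. CTT1 encodes the cytosolic catalase, FMP16 a mitochondrial protein of unknown function and MSC1 a protein linked to meiotic recombination. CTT1 had 8.64, 10.57 and 8.17 at 0.32 and 8.47, 10.08 and 10.06 at 0.68. The same arrays as in ALD3 were high, replicate 2 at 0.32 and replicates 2 and 3 at 0.68.

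**Figure D3:**
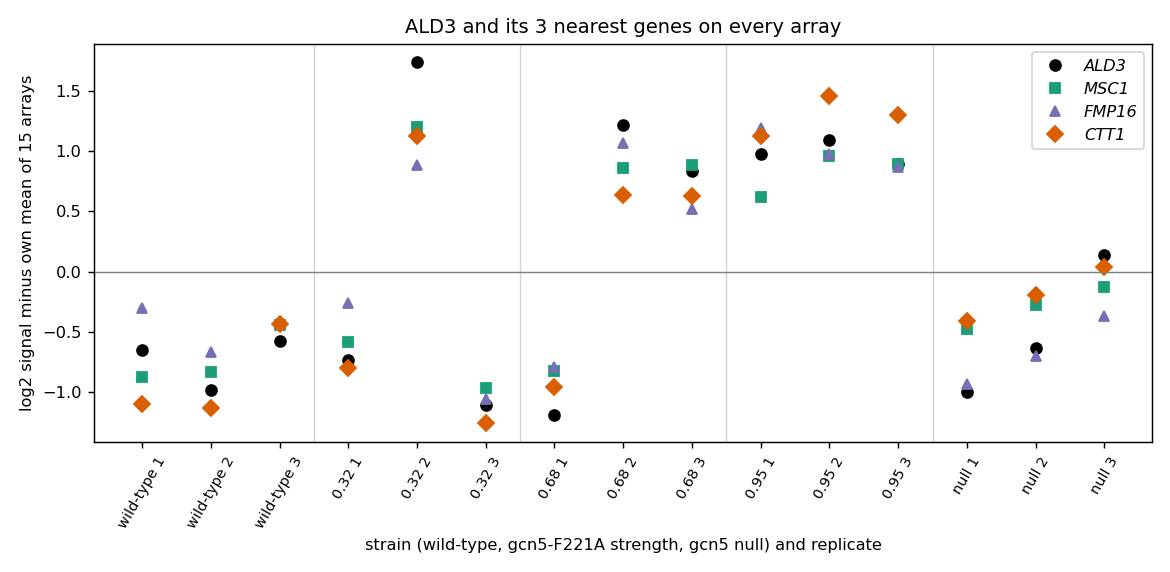
Log2 signal minus the gene's own mean over 15 arrays, for ALD3 and the 3 genes with the nearest profiles, by strain and replicate. Each point is 1 array. All 4 genes are above their mean at 0.32 replicate 2, at 0.68 replicates 2 and 3 and on the 3 arrays at 0.95, and below it on the 3 wild-type arrays.

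ACS2 (YLR153C, chromosome XII from 445524 to 447575) encodes the acetyl-CoA synthetase that cells need on glucose, and it was highest in the null strain. The log2 signals were 11.72, 12.10 and 11.91 in wild-type and 12.50, 12.45 and 12.30 in the null strain. With gcn5-F221A they were 11.68, 11.69 and 11.26 at 0.32, 11.97, 11.49 and 12.11 at 0.68, and 11.44, 11.77 and 11.98 at 0.95. The null arrays were above all other 12, and the arrays at 0.32 were below all wild-type arrays.

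In the null strain ACS2 rose 1.42-fold (log2 difference 0.51, standard error 0.18, limma adjusted p = 0.0375). The difference was 0.87 against strength 0.32 (adjusted p = 0.00223; 17.9% of all genes were called higher there) and 0.57 against 0.68 (adjusted p = 0.0488; 6.57% higher). Against wild-type the 3 mutant strains differed by -0.36, -0.06 and -0.18, with adjusted p of 0.487, 0.866 and 0.585. The call in the null strain was lost without wild-type replicate 1 or 3 or any null array, with adjusted p from 0.051 to 0.138, and with all probe sets in the fit (0.0561), the replicate number as a block (0.0619) or the RNA quality covariate (0.202).

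ACS1 (YAL054C, chromosome I from 42881 to 45022) encodes the synthetase used when glucose is short. Its log2 signals were 9.01, 9.25 and 9.24 in wild-type and 9.58, 9.58 and 9.46 in the null strain. The mutant strains gave 9.16, 9.21 and 8.62 at 0.32, 9.25, 9.04 and 9.70 at 0.68, and 8.80, 9.20 and 9.48 at 0.95. The null arrays were above all wild-type arrays, and the strain at 0.68 reached above them. The difference of 0.37 in the null strain had a 95% interval from -0.06 to 0.80 (limma adjusted p = 0.157). Only against 0.32 did the null strain pass for ACS1, by 0.55 (adjusted p = 0.043). At 0.95 the difference from wild-type was -0.01, with an interval from -0.44 to 0.42.

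Values of both synthetase genes moved with a measure of RNA quality. The array carries separate probe sets for the 5' and 3' ends of control genes, and the mean log2 signal at the 5' end minus that at the 3' end over 8 of them falls when transcripts are copied or kept less completely. Its mean was -3.44 ± 0.22 for wild-type and -2.90 ± 0.22 for gcn5 null, and with rising strength of the mutant it was -3.53 ± 0.38, -2.94 ± 0.46 and -3.11 ± 0.34 (SD, n = 3 each). ACS1 and ACS2 were each lowest on the array with the lowest such value in 5 of 5 strains, which held for 672 of all genes (12.3%). Within strains, ACS1 changed by 0.70 log2 units per unit of this measure (standard error 0.12, limma adjusted p = 8.38e-04) and ACS2 by 0.67 (standard error 0.09, adjusted p = 1.17e-04), in a fit where 38.2% of genes had a called slope. ALD2 changed the other way, by -0.53 (standard error 0.16, adjusted p = 0.0233). For ALD4, ALD5, ALD6 and ALD3 the slope did not pass (0.07, -0.07, 0.51 and -0.27). That of ALD6 had a standard error of 0.31 (limma adjusted p = 0.207). ALD6 was lowest on the array with the lowest 5' minus 3' value in 4 of 5 strains. ALD4 was so in 3, ALD5 and ALD3 in 1 each and ALD2 in 0.

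With this measure as a covariate, an alternative added after the data were seen, ACS2 in the null strain differed from wild-type by 0.15 (limma adjusted p = 0.202) and ACS1 by -0.01 (adjusted p = 0.97). The measure itself did not overlap between these strains, from -3.67 to -3.24 in wild-type and from -3.11 to -2.67 in the null strain. Strain and RNA quality therefore cannot be told apart in these differences. With the covariate ACS2 passed as lower at 0.68, by 0.39 (adjusted p = 0.0123), and at 0.95, by 0.40 (adjusted p = 0.00488), and ALD2 passed as higher at both, by 0.53 (adjusted p = 0.0368) and 0.57 (adjusted p = 0.0189). In that fit 23.2% of all genes were called at 0.68 and 22.8% at 0.95, against 12.4% and 12.5% without it. ALD6 and ALD4 at 0.95 were called with and without it, and the slope of ALD6 was lost (0.88, adjusted p = 0.0547), as was ALD4 at 0.68 (0.56, adjusted p = 0.0582).

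**Figure D4:**
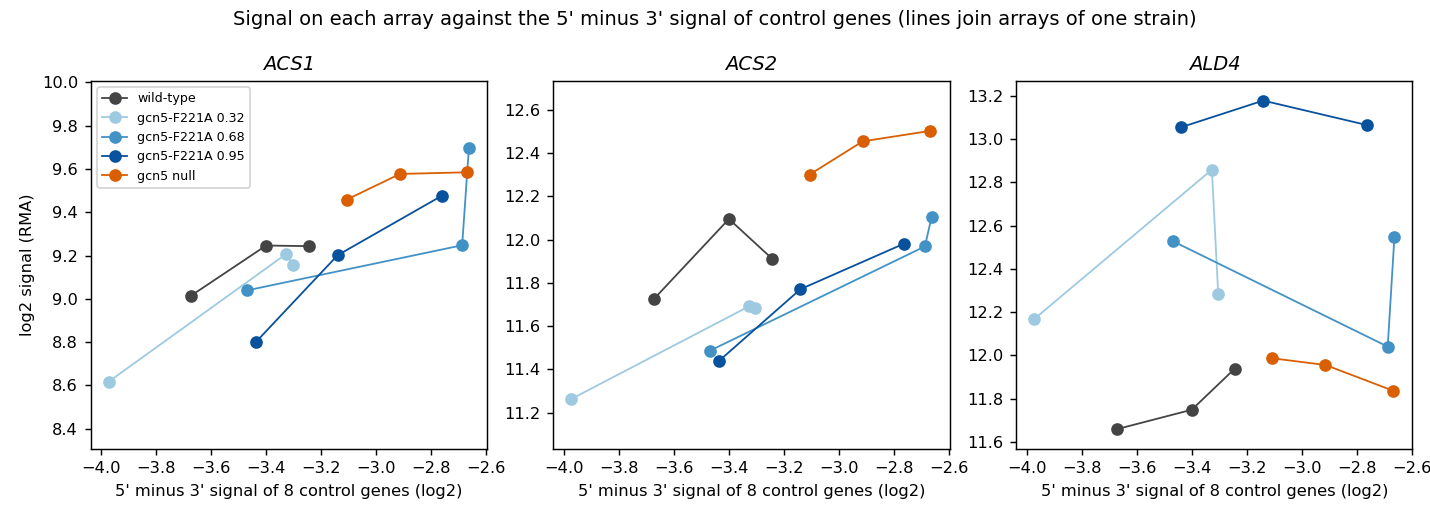
Log2 signal of ACS1, ACS2 and ALD4 on each array (vertical axis) against the mean 5' minus 3' log2 signal of 8 control genes (horizontal axis), with lines joining the 3 arrays of a strain. In all 5 strains the left-most array is the lowest for ACS1 and ACS2, and for ALD4 the strains at 0.95 and wild-type are apart at every value.

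Strength 0.95 and the null strain were also compared directly, since both lower Gcn5 activity, one by competition and the other by loss of the protein. ALD6 and ALD4 were higher at 0.95 and ACS2 was lower, and the other 4 genes did not pass. These are 2 of 7 higher and 1 lower, where 33.1% of all genes were called (19.5% higher and 13.6% lower). The arrays did not overlap for 4 genes higher and 1 lower, and for 54.6% of all genes. The arrays of ALD6 were apart by a mean of 1.58 (standard error 0.29, limma adjusted p = 0.00114), those of ALD4 by 1.17 (standard error 0.17, adjusted p = 2.32e-04) and those of ACS2 by -0.69 (standard error 0.18, adjusted p = 0.0101). ALD3 and ALD2 arrays also stood higher at 0.95 without overlap, by 1.49 (standard error 0.68, adjusted p = 0.114) and 0.35 (standard error 0.19, adjusted p = 0.182). With the 5' minus 3' measure as a covariate and with each array left out, the 3 calls were kept. The difference of ACS2 ran from -0.82 to -0.54 over the arrays left out, with a highest adjusted p of 0.0493.

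When the strains were ordered by mean signal, neighbours overlapped at every step for ALD5, ALD2, ALD3 and ACS1, and for ACS2 at every step but that from wild-type to the null strain. None of the 7 genes was among the 3 nearest in profile to another of them. By rank of nearness over all genes, ALD4 stood at 33 for ALD3 and at 89 for ALD6. In the other direction ALD3 stood at 4607 and ALD6 at 4395 for ALD4. ACS1 and ACS2 were the nearest pair, with a root mean square difference of 0.16 log2 units over 15 arrays. The median over all genes was 0.36 for ACS1 and 0.41 for ACS2. By rank ACS2 stood at 55 for ACS1, and ACS1 at 26 for ACS2. Outside the set, TOM22, a receptor of mitochondrial protein import, was among the 3 genes nearest to both, at 0.09 and 0.12. ATP2, the β subunit of the mitochondrial ATP synthase, was 0.10 from ACS1, and the kinase gene KSP1 was 0.11 from ACS2. Like ACS1 and ACS2, these genes were each lowest on the array with the lowest 5' minus 3' signal in 5 of 5 strains (12.3% of all genes). How much of the closeness follows RNA quality was not tested. For ALD4 the nearest were OM14, of the mitochondrial outer membrane, ECM4, a glutathione transferase, and POT1, the peroxisomal thiolase that releases acetyl-CoA from fatty acids. All were at 0.24 to 0.25 against a median of 0.54. The POT1 arrays of wild-type and the null strain, from 4.73 to 5.13, were all below the background limit of 5.18. For ALD6 the nearest were ROX1, the repressor of hypoxic genes, ABF1, a general DNA-binding factor, and CIN5, a transcription factor of the stress response. They were at 0.44 to 0.48 against a median of 0.80. ALD5 lay 0.09 from ARO1, of aromatic amino acid synthesis, and ALD2 lay 0.10 from ARA2, an arabinose dehydrogenase. These are descriptions over arrays that share strains and labelling, and closeness is easier for genes that move little.

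The steps around these enzymes were followed through 9 lists with 81 genes in all, all of them measured. In the null strain 26 rose and 11 fell (45.7%, against 41% of all genes), at 0.95 9 rose and 3 fell (14.8% against 12.5%), and the slope was called positive in 12 and negative in 3 (18.5% against 15.7%). At 0.32 the only called gene was ECM31, of pantothenate synthesis, at a log2 difference of 0.35 (limma adjusted p = 0.0286), and at 0.68 8 rose and 2 fell (12.3% against 12.4%).

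Upstream of the dehydrogenases, none of the 3 pyruvate decarboxylase genes PDC1, PDC5 and PDC6, which make acetaldehyde, passed limma's test in the null strain or at 0.95, and 0 and 1 of them had an unadjusted p under 0.05. In the null strain 18.4% of all genes were called higher and 22.6% lower. Of 6 alcohol dehydrogenase genes, which draw on the same acetaldehyde, 2 rose and 1 fell there. These were SFA1, which also acts on formaldehyde, at 0.39 (adjusted p = 0.00455), the mitochondrial ADH3 at 0.26 (adjusted p = 0.0243), and ADH2, which oxidizes ethanol and is repressed by glucose, at -0.51 (adjusted p = 0.0135). The slope was called for SFA1 at 0.33 (adjusted p = 0.0275) and for ADH5 at -0.72 per unit of strength (adjusted p = 0.0443). ADH5 did not fall step by step, with differences from wild-type of -0.08 at 0.32, 0.70 at 0.68 and -1.12 at 0.95. In the pyruvate dehydrogenase complex, the mitochondrial route to acetyl-CoA, 3 of 9 genes rose in the null strain and 2 had a called positive slope. Over all genes 15.7% had a called slope. PTC6, a phosphatase acting on the complex, passed both, at 0.40 (adjusted p = 0.00371) in the null strain and 0.33 per unit of strength (adjusted p = 0.0278). PTC6 did not rise step by step, with differences from wild-type of 0.40 at 0.32, 0.41 at 0.68 and 0.34 at 0.95. The null strain also had higher LPD1, the dihydrolipoamide dehydrogenase, at 0.32 (adjusted p = 0.00802) and PDX1, at 0.27 (adjusted p = 0.00874), and the slope of PDA1, the E1 α subunit, was 0.24 (adjusted p = 0.0275).

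Of 8 genes on a list of acetate, carnitine and related transport genes, 4 rose and 1 fell in the null strain. Among all genes 18.4% were called higher there and 22.6% lower. YAT1, a carnitine acetyltransferase, rose by 1.01 (limma adjusted p = 7.68e-05) and ACH1, a mitochondrial enzyme that handles acetate and acetyl-CoA, by 0.80 (adjusted p = 1.90e-04), while ATO3, known as an ammonium exporter of the plasma membrane, was at -0.81 (adjusted p = 0.00734). At 0.95 none of the 8 passed, where 12.5% of all genes did, and 2 had an unadjusted p under 0.05. The slope was called for ACH1 at 0.39 (adjusted p = 0.0349). Its differences from wild-type did not rise step by step, at 0.11 for 0.32, 0.43 for 0.68 and 0.30 for 0.95. Of 12 enzymes that use acetyl-CoA, 4 rose and 4 fell in the null strain, with CIT3, a mitochondrial citrate synthase, at 0.51 (adjusted p = 0.00305), MLS1, malate synthase of the glyoxylate cycle, at -0.62 (adjusted p = 0.0399) and LEU9, an α-isopropylmalate synthase, at -0.90 (adjusted p = 9.12e-05). LEU9 also had a negative slope, -0.63 per unit of strength (adjusted p = 0.00371), and CIT1, the main mitochondrial citrate synthase, a positive one of 0.55 (adjusted p = 0.0222). In the synthesis of β-alanine, pantothenate and coenzyme A, 2 of 9 genes rose in the null strain. They were PAN6, by 0.50 (adjusted p = 8.50e-04), and ECM31, by 0.29 (adjusted p = 0.00684), both of pantothenate synthesis. The slope of ECM31 was 0.39 (adjusted p = 0.00397). ECM31 was already 0.35 above wild-type at 0.32, with 0.34 at 0.68 and 0.42 at 0.95.

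Of 4 other enzymes of the aldehyde dehydrogenase family, HFD1, which oxidizes fatty aldehydes, rose in the null strain by 0.52 (limma adjusted p = 0.0127), and PUT2, of proline breakdown, and MSC7 fell, at -0.53 (adjusted p = 0.0168) and -0.48 (adjusted p = 0.00974). None of the 4 was called at any strength of gcn5-F221A, and 0 had an unadjusted p under 0.05 there. In the null strain 18.4% of all genes were called higher and 22.6% lower. NADPH, the other product of Ald6, also comes from the enzymes of a list of 12, of which 5 rose and 0 fell there. They included ZWF1, glucose-6-phosphate dehydrogenase, at 0.86 (adjusted p = 0.00402), POS5, the mitochondrial NADH kinase, at 0.68 (adjusted p = 4.21e-04) and GND1, 6-phosphogluconate dehydrogenase, at 0.47 (adjusted p = 0.00227). With gcn5-F221A the slope was called for SOL4, a 6-phosphogluconolactonase, at 1.76 (adjusted p = 0.0175) and for the NADH kinase genes YEF1 and UTR1, at 0.65 (adjusted p = 0.0143) and 0.36 (adjusted p = 0.0168), all positive.

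Of 18 regulators of carbon use, stress and lipid genes, 5 rose and 3 fell in the null strain. Among all genes 18.4% were called higher there and 22.6% lower. CAT8, an activator of genes for growth without glucose, was at 1.204 (limma adjusted p = 1.23e-04), MSN4, of the general stress response, at 0.60 (adjusted p = 0.014), and GIS1, active in the transition to stationary phase, at 0.57 (adjusted p = 0.017). Over gcn5-F221A strengths 3 passed with a positive slope and 1 with a negative one, where 15.7% of all genes had a called slope. SIP4, ADR1, an activator of glucose-repressed genes, and CAT8 rose, by 0.72 (adjusted p = 0.00782), 0.70 (adjusted p = 0.00649) and 0.67 per unit of strength (adjusted p = 0.0159), and HAP4, the activating subunit of the Hap complex that switches on respiratory genes, fell, with a slope of -1.28 (adjusted p = 0.00774). The mean of ADR1 in wild-type, 4.94, was below the background limit of 5.18, and at 0.95 it was 5.54.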

How the data were processed

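RNA from 5 yeast strains, 3 biological replicates each, was hybridized to 15 Affymetrix Yeast 2.0 arrays. The authors made log2 signals by RMA (background correction, then quantile normalization and a summary for each probe set), and the deposited log2 values were used unchanged. RMA sets every array to one distribution, so a change is relative to the other probe sets. Of 10928 probe sets, 5498 name an S. cerevisiae gene, and the brightest was kept for each of 5449 genes. Positions are those of assembly R64. A limma 3.58.1 model (R 4.3.3) with a mean per strain gave moderated tests, adjusted by Benjamini and Hochberg over 5449 genes and called at 0.05. The slope takes wild-type as strength 0. Precision is limited by 3 arrays per strain, and the median residual SD was 0.156.

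The members and lists were chosen with earlier results of these data known. The text names the 7 genes, GCN5, up to 3 called genes of each list with the largest differences in the null strain and up to 3 with a called slope and the largest difference at 0.95, and the genes nearest in profile (at most 3 per gene); ECM31 at 0.32 is named as the only call, and ADR1 was added after its values were seen. Replicate numbers were not treated as pairs: 5 of 15 arrays had their highest correlation with arrays of equal number once strain means were subtracted. Tests were checked on simulated data. Alternatives covered the probe sets tested, normalization, dim genes, variance moderation, a replicate block, which arrays entered the fit, the coding of strength, the 5' minus 3' signal and leaving out each array. Promoter motifs and protein identity were not analysed here. Plots were drawn with matplotlib 3.10.9.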

Additional observations from a re-analysis of the deposited data

Results flagged for a closer look

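ALD6, ALD4 and ACS2 differed between strength 0.95 and the null strain in the change from wild-type, by limma's test of that difference. ALD6, the cytosolic aldehyde dehydrogenase gene, changed by 1.62 at 0.95 and by 0.04 in the null strain, a difference of 1.58 on the log2 scale (adjusted p = 0.00114), and all 3 arrays at 0.95 were above all 3 null arrays. ALD4, the mitochondrial one, changed by 1.32 and 0.14, a difference of 1.17 (adjusted p = 2.32e-04), with all 3 arrays above all 3. ACS2, the synthetase gene needed on glucose, changed by -0.18 and 0.51, a difference of -0.69 (adjusted p = 0.0101), with all 3 arrays below all 3. Both changes share the wild-type arrays, which cancel in the difference. The 5' minus 3' signal, with which ACS2 moved within strains, was -3.11 at 0.95 and -2.90 in the null strain, and with it as a covariate ACS2 was still called.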

How the results depend on the processing

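Of the settings tried, none turned the sign of a called gene, and ALD6 and ALD4 at 0.95, and ALD6, ALD4 and ACS2 between 0.95 and the null strain, were called in all of them. The number of the 7 genes called moved as follows, with the share of all genes called in the same fit in brackets. In the null strain (1 called, 41%) it was 0 with all probe sets in the fit (19.4% of probe sets). It was 0 with the 5' minus 3' signal as a covariate (47.1%) and 2 with only the arrays compared (54.4%), where ACS1 was gained (adjusted p = 0.00698). With the replicate number as a block it was 0 in the null strain (38.5%, ACS2 at 0.0619), and this block changed no other count of the 7 genes. No label says whether equal numbers share a day or batch, and this was not tested. The mean correlation of deviations was -0.070 for equal and 0.041 for other numbers. At 0.68 (1 called, 12.4%) it was 0 with all probe sets (4.18% of probe sets, ALD4 at 0.059). It was 0 with only the arrays compared (0.0734%, ALD4 at 0.156) and 2 with the covariate (23.2%). At 0.95 (2 called, 12.5%) it was 4 with only the arrays compared (17%, ALD2 at 0.0491 and ALD3 gained) and 4 with the covariate (22.8%). Between 0.95 and null (3 called, 33.1%) it was 5 with only the arrays compared (42.5%). The slope (2 called, 15.7%) gave 0 over the gcn5-F221A strains alone (1.6%, ALD6 at 0.0885, ALD4 at 0.0865) and 3 with the covariate (22.9%). Where a count fell to 0, 0 to 3 genes had an unadjusted p under 0.05. Leaving out each array gave 0 to 1 in the null strain, 0 to 1 at 0.32, 0 to 3 at 0.68, 2 to 3 at 0.95, 3 to 4 between 0.95 and null and 1 to 3 for the slope. Over all genes the count moved by over 1.5 times at 0.32 (87, from 6 to 189), at 0.68 (675, from 4 to 1451), at 0.95 (680, from 379 to 1241) and for the slope (853, from 87 to 1290). It stayed within 1.5 times in the null strain (2232, from 1681 to 2965) and between 0.95 and null (1803, from 1379 to 2435). The causes were not tested.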
